A study of Saccharomyces cerevisiae with 180 samples.

Results

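The genes described here are HAP1 and 9 genes regulated by heme or oxygen in the budding yeast Saccharomyces cerevisiae: CYC1, CYC7, CYB2, COX5A, COX5B, ROX1, HEM13, YHB1 and OLE1. They were taken by symbol, each was measured by 1 probe, and together they are 10 of the 5605 genes with a symbol on the arrays. The groups of haploid strains compared were 86 segregants of the cross of BY4716 with RM11-1a, 2 cultures of RM11, a haploid derivative of a vineyard isolate, and 2 cultures of BY4716, a laboratory strain of S288c background. RM11 was taken to be the RM11-1a parent. By their known genotypes, LEU2, URA3 and HO are deleted in RM11-1a, which mates as a, LYS2 is deleted in BY4716, which mates as alpha, and these alleles segregate in the cross. The labels give no growth medium or oxygen supply, and 1 culture of each segregant was measured. Every culture was hybridised against the same BY4716 pool on 2 two-colour arrays with the dyes exchanged. Each value below is the mean log2 ratio of the culture over that pool, so 0 is the level of the pool. The RNA came from whole cultures, in which fewer cells with a transcript and less transcript per cell cannot be told apart.

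Hap1 is a zinc-cluster transcription factor that binds heme and, with heme present, activates genes of respiration, sterol synthesis and oxidative stress defence. Heme needs oxygen for its synthesis, so its level reports oxygen to the cell. One gene that Hap1 activates in air is ROX1, whose product represses hypoxic genes such as COX5B, HEM13 and ANB1. Several respiratory proteins are encoded by a pair of genes, one used in air and one when oxygen is scarce. S288c and its derivatives are known to carry a Ty1 insertion at the 3′ end of the HAP1 reading frame, which changes the end of the Hap1 protein. Whether the HAP1 probe lies in the part changed by the insertion is not given in the sources used here.

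The 180 arrays held between 3769 and 6570 values each. Over genes, the 2 arrays of a segregant correlated with a median r of 0.754, from 0.434 to 0.907, and 12 of the 86 segregants lay below 0.6. Strain markers gave the sign of the ratios: LEU2 averaged -5.68 in RM11 and -0.13 in BY4716, and the mating type a receptor gene STE2 averaged 5.51 in RM11 and -0.06 in BY4716. These markers are no finding.

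HAP1 itself was lower in RM11 than in BY4716. Its log2 ratios were -1.62 and -1.97 in the RM11 cultures, against 0.22 and 0.07 in the BY4716 cultures. The difference was -1.94 (SE 0.14, n = 2 cultures per strain; limma, adjusted p = 0.000789), or 3.84-fold lower in RM11. Under quantile normalization it was -1.22 (limma, adjusted p = 0.00135). In the segregants HAP1 ran from -1.56 to 0.78 with a median of -0.52. No segregant lay at or below the higher RM11 culture, 28 of 86 lay at or below the midpoint of the parental means (-0.82), and 10 lay above the lower BY4716 culture. HAP1 over segregants was not called as 2 clusters, a call that needs a BIC gain over 10 and means over 4 SD apart. Its fit with 2 clusters had means 2.39 SD apart and a BIC change of -4.87. Missing this call does not show that the distribution is continuous.

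The aerobic respiratory genes were higher in RM11. CYC1 encodes iso-1 cytochrome c, the main cytochrome c of cells in air. It stood at 1.30 and 0.79 in the RM11 cultures, against 0.00 and -0.07 in the BY4716 cultures, so the strains did not overlap. COX5A encodes the aerobic form of subunit V of cytochrome oxidase, and stood at 1.96 and 1.92 in RM11, against 0.12 and -0.02 in BY4716. The COX5A difference was 1.89 (SE 0.09, n = 2 cultures per strain; limma, adjusted p = 0.000188), a 3.70-fold rise. CYC1 lacked a value on 1 of 8 parental arrays and entered only the fit that asks for at least 1 array per culture. That fit averages all arrays present, and there CYC1 was higher by 1.08 (SE 0.18; limma, adjusted p = 0.0215). The first RM11 culture read 1.73 on one array and 0.87 on the other, and on the Cy5-titled arrays alone CYC1 was higher by 0.67 (limma, adjusted p = 0.00983). CYB2 encodes cytochrome b2, the mitochondrial L-lactate dehydrogenase that passes electrons to cytochrome c. It stood at 2.45 and 2.63 in RM11 and had no value on any of the 4 BY4716 arrays, so it has no parental difference here.

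YHB1 encodes flavohemoglobin, a heme protein that detoxifies nitric oxide. Its log2 ratios were 1.80 and 1.87 in RM11, against -0.06 and -0.13 in BY4716, a 3.81-fold rise (difference 1.93, SE 0.08; limma, adjusted p = 0.000138). CYC7, for iso-2 cytochrome c, is the hypoxic member of its pair and is also a Hap1 target. It stood at 1.65 and 1.69 in RM11, against -0.14 and -0.19 in BY4716. CYC7 was thus higher in RM11 by 1.84 (SE 0.08; limma, adjusted p = 0.000138), a difference of about the same size as those of COX5A and YHB1.

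Of the other genes used when oxygen is scarce, COX5B was lower in RM11 and the rest did not pass the test. COX5B, the hypoxic form of subunit V, stood at -1.10 and -0.39 in RM11, against 0.29 and 0.05 in BY4716 (difference -0.92, SE 0.24; limma, adjusted p = 0.0464). The second RM11 culture read 0.20 on one array and -0.98 on the other, so its dyes disagreed. The COX5B call was lost without BY4716 culture 1 (-0.79) or culture 2 (-1.04). It was also lost in the fit that asks for at least 1 array per culture (limma, adjusted p = 0.0683). There COX5B kept the same arrays and the same difference, and only the set of genes tested was wider. The difference was -0.50 on the Cy3-titled arrays alone (limma, adjusted p = 0.482) and -0.56 without RM11 culture 1, where it passed on the spread of the BY4716 cultures. HEM13 encodes coproporphyrinogen oxidase, the oxygen-using step of heme synthesis that low oxygen induces. It stood at -0.08 and 0.02 in RM11, against 0.07 and 0.06 in BY4716 (difference -0.09, SE 0.08; limma, adjusted p = 0.430). OLE1, for the oxygen-using fatty acid desaturase, stood at 0.45 and 0.74 in RM11, against 0.35 and 0.01 in BY4716. With at least 1 array per culture its difference was 0.42 (SE 0.16; limma, adjusted p = 0.143). On the Cy5-titled arrays alone its difference passed at 0.76 (limma, adjusted p = 0.0155).

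ROX1, the hypoxic repressor, stood at 0.32 and -0.09 in RM11, against -0.24 and 0.00 in BY4716, and the strains overlapped. The difference was 0.24 (SE 0.16; limma, adjusted p = 0.334). It passed on the Cy5-titled arrays alone (0.42; limma, adjusted p = 0.0291) and stood at 0.05 on the Cy3-titled arrays. Without RM11 culture 2 it was 0.44 and without RM11 culture 1 it was 0.03, and in both cases the lone RM11 culture had to be assumed to vary like the BY4716 cultures. In all, 7 of the 10 genes had values on all 8 parental arrays, and 3 of the 7 were higher and 2 lower in RM11. Over all genes so tested, 18.2% (591 of 3256) were higher and 8.54% (278) were lower. Under quantile normalization 435 were higher and 315 lower. With at least 1 array per culture, 9 of the 10 could be tested. Of these 4 were higher, against 10.7% of 5169 genes, and 1, HAP1, was lower, against 7.62%.

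**Figure D1:**
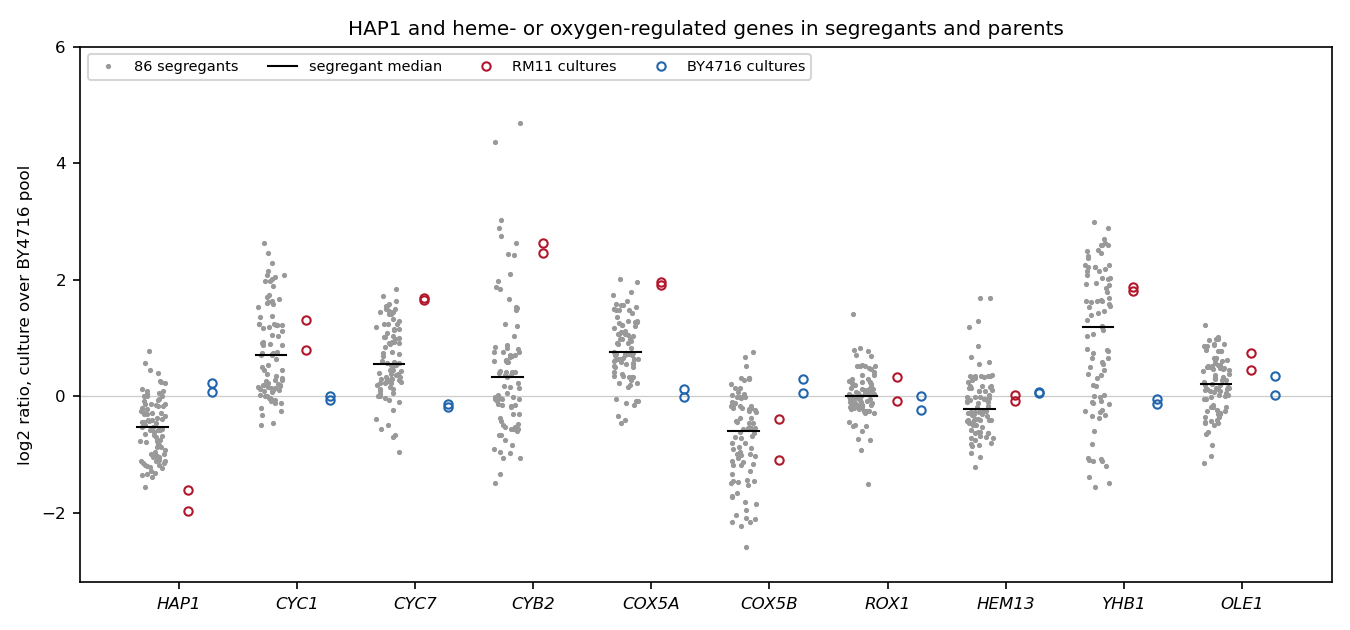
Log2 ratio over the BY4716 pool (vertical axis) of each of the 10 genes: grey points are segregants with a black bar at their median, red circles RM11 cultures and blue circles BY4716 cultures. HAP1 and COX5B lie lower in RM11, CYC1, CYC7, COX5A and YHB1 lie higher, and HEM13 and ROX1 lie near 0 in both parents while their segregants spread on both sides.

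Across segregants all 7 testable genes varied by more than repeat cultures of a parent did (one-sided F test with limma's moderated error, Benjamini-Hochberg adjusted p from 0.000688 for YHB1 to 0.0414 for ROX1). This was the case for 58.6% of all genes tested, so the count does not set these genes apart. Without BY4716 culture 1 the test held for CYC7, COX5A and YHB1, and without culture 2 for CYC7 and YHB1. HAP1 was then at adjusted p = 0.0984 and 0.107.

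YHB1 spread most of the 7, with an SD of 1.23 over segregants against an error of 0.082. It ran from -1.55 to 3.00 with a median of 1.19, and 27 segregants lay above both parents and 17 below both. HEM13 hardly differed between the parents, yet ran from -1.22 to 1.69 with a median of -0.22 (SD 0.548, error 0.081). Of its segregants 29 lay above both parents, 49 below both and 8 between them.

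COX5B reached lower in the segregants than in either parent. It ran from -2.58 to 0.77 with a median of -0.59, and 26 of 86 segregants lay below both RM11 cultures. COX5A ran from -0.46 to 2.02 with a median of 0.76, and CYC7 from -0.95 to 1.84 with a median of 0.56. Both kept mostly between the parents: 1 segregant lay above and 8 below for COX5A, and 2 above and 7 below for CYC7.

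CYC1 ran from -0.50 to 2.63 with a median of 0.70, and 21 segregants lay above both parents. It had a value on 156 of 172 segregant arrays and on both arrays of 70 segregants. CYB2 had the widest range of the 10, from -1.49 to 4.70 with a median of 0.33 over 85 segregants. It had a value on 153 of 172 segregant arrays, on both arrays of 68 segregants and on none of the BY4716 arrays. OLE1 ran from -1.15 to 1.23 with a median of 0.20, and 14 segregants lay above and 28 below both parents. ROX1 ran from -1.51 to 1.41 with a median of 0.00. The repeatability of the probes differed: the arrays of a segregant correlated over segregants with r of 0.961 for YHB1, 0.924 for HEM13 and 0.846 for HAP1, but 0.379 for CYC1 and 0.336 for ROX1. None of the 10 genes was called as 2 clusters over segregants, a call made for 1.41% of genes. The BIC favoured 2 clusters for CYC1 (gain 5.69), YHB1 (5.93), HEM13 (6.12) and CYB2 (8.91), short of the gain of 10 that the call needs.

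The next comparison asked how each gene moved with HAP1 from segregant to segregant. CYC1, CYC7, COX5A, YHB1 and OLE1 were higher where HAP1 was lower, as in the parental difference for the first 4 of them. CYC7 had the largest correlation of the 9 genes, with Pearson r of -0.73 and Spearman rho of -0.76 over 86 segregants (permutation p = 1e-05 for both, the smallest they can give). CYC7 ranked second of 5566 genes by the size of r, CYC1 ranked 10, COX5A 15, YHB1 19 and OLE1 40. A segregant with HAP1 higher by 1 log2 unit had CYC7 lower by a fitted slope of -0.87 (SE 0.09; limma, adjusted p over all genes = 2.49e-12).

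CYC1 had r of -0.68 and rho of -0.69, with a slope of -1.03 (SE 0.12; limma, adjusted p = 9.53e-11). COX5A had r of -0.64 and rho of -0.66, with a slope of -0.68 (SE 0.09; limma, adjusted p = 4.66e-09). The steepest slope among the 9 genes was that of YHB1, at -1.48 (SE 0.20; limma, adjusted p = 2.74e-08), with r of -0.62 and rho of -0.65. OLE1, which did not pass between the parents, had r of -0.59 and rho of -0.64 and a slope of -0.57 (SE 0.08; limma, adjusted p = 2.28e-07). The permutation p of r and of rho was 1e-05 for each of these 4 genes. Without the 2 segregants farthest from the HAP1 median, r of the 5 genes lay between -0.60 (YHB1) and -0.72 (CYC7).

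HEM13 and COX5B went the other way and were higher where HAP1 was higher. HEM13 had r of 0.36 (permutation p = 0.00056) and rho of 0.47, with a slope of 0.38 (SE 0.11; limma, adjusted p = 0.00533). COX5B had r of 0.29 (permutation p = 0.0058) and rho of 0.33, with a slope of 0.44 (SE 0.15; limma, adjusted p = 0.0257). The COX5B slope missed the threshold without the 2 farthest segregants (limma, adjusted p = 0.0517), on either dye alone (0.072 and 0.143) and under quantile normalization (0.0854).

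CYB2 and ROX1 were weakly negative. CYB2 had r of -0.30 (permutation p = 0.0051, 85 segregants) and rho of -0.35, with a slope of -0.69 (SE 0.24; limma, adjusted p = 0.0244). ROX1 had r of -0.28 (permutation p = 0.0076) and rho of -0.47, with a slope of -0.22 (SE 0.08; limma, adjusted p = 0.0332). Without the 2 farthest segregants r was -0.30 for CYB2 and -0.41 for ROX1. The CYB2 slope missed the threshold on either dye alone (limma, adjusted p = 0.118 and 0.0583). The ROX1 slope missed it with arrays centred on their medians (limma, adjusted p = 0.0526) and on the Cy5-titled arrays (0.662). Both missed it without the 12 segregants whose arrays correlated below 0.6 (limma, adjusted p = 0.0716 for CYB2 and 0.0927 for ROX1).

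In total 7 of the 9 genes passed with a negative slope on HAP1, against 15.9% of the 5566 genes tested, and 2 with a positive slope, against 11.2%. Values of the same array share its noise, so HAP1 was also taken from one dye orientation and the other gene from the opposite one. Then r lay between -0.48 and -0.71 for CYC1, CYC7, COX5A, YHB1 and OLE1 in both arrangements. For ROX1 it was -0.06 in one and -0.38 in the other. The first number of the segregant titles, whose meaning the labels do not give, was tested as a batch, and within it r lay between -0.58 and -0.70 for those 5 genes. The segregant with the highest HAP1 weighed on the count over all genes: 1508 genes were called in all segregants and 994 without it, while 7 of the 9 genes stayed negative and 1 positive.

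**Figure D2:**
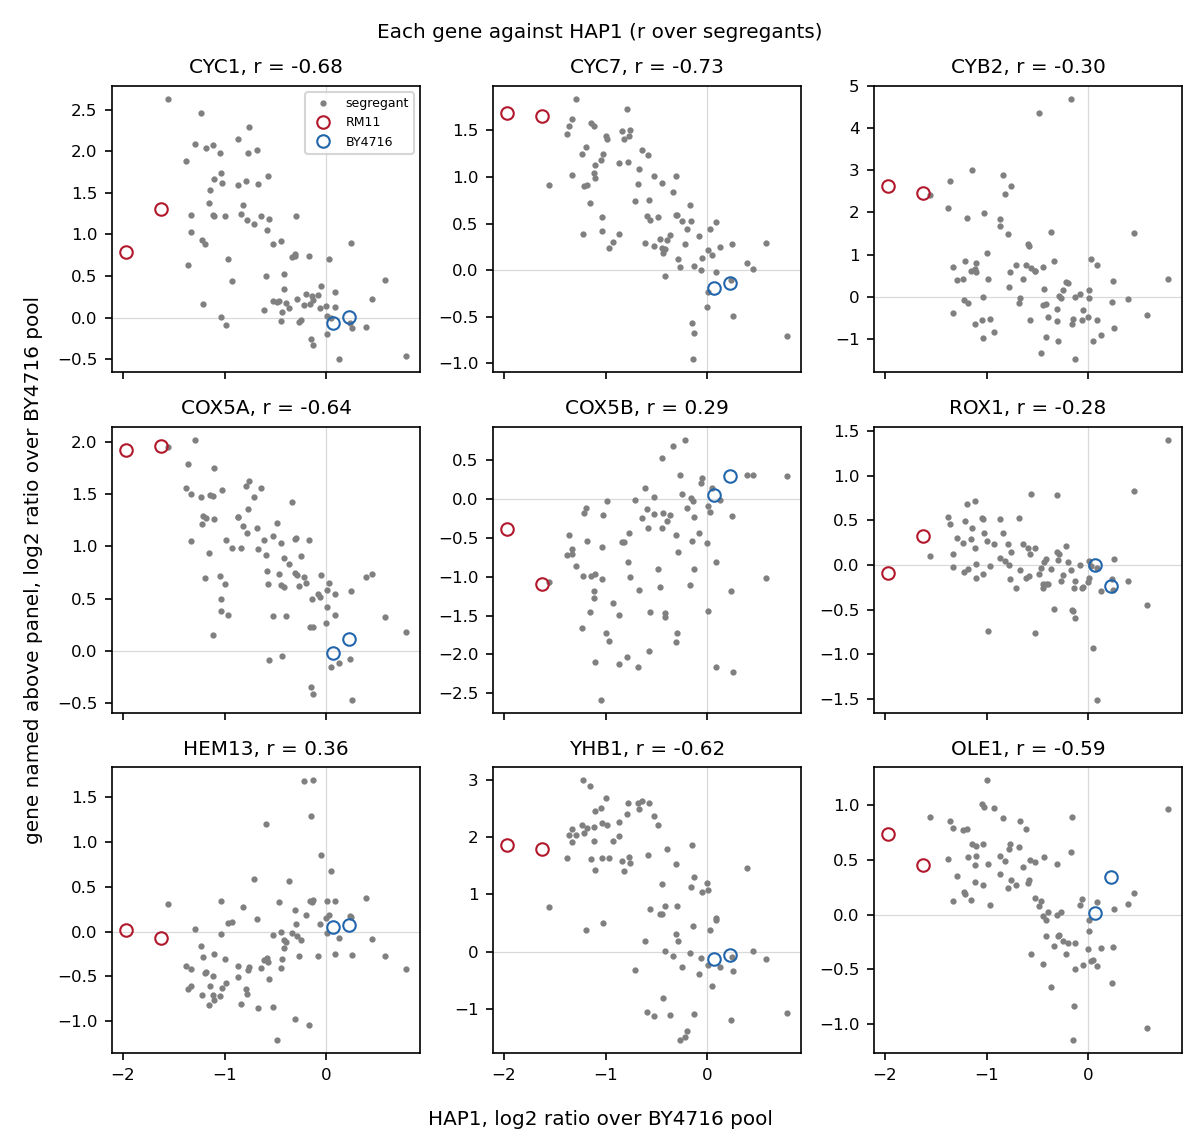
Each panel plots 1 gene (vertical axis) against HAP1 (horizontal axis), both as log2 ratios over the BY4716 pool, with grey points for segregants, red circles for RM11 and blue circles for BY4716. CYC7, CYC1, COX5A, YHB1 and OLE1 fall from left to right, HEM13 and COX5B rise, and the RM11 circles lie left of all segregants.

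**Figure D3:**
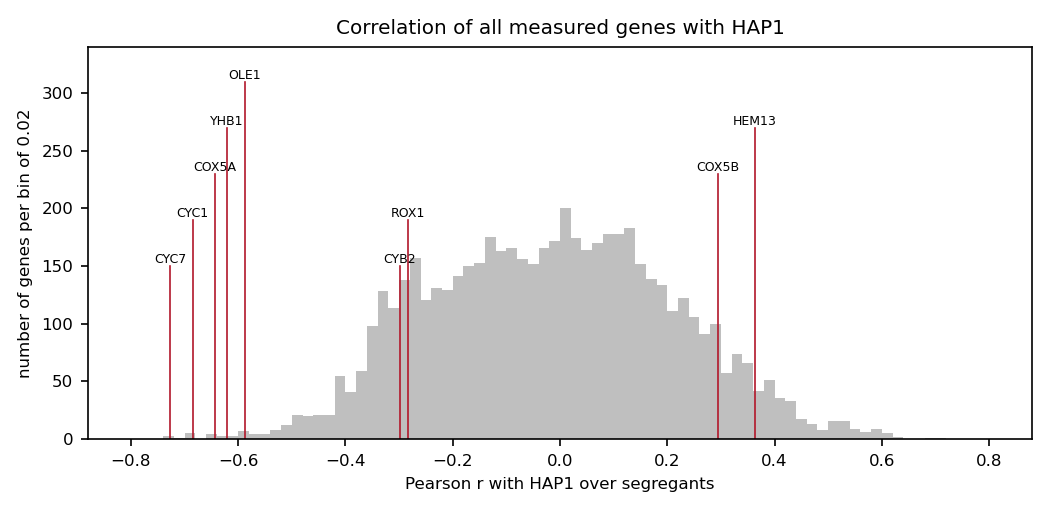
The grey histogram counts all 5566 tested genes by their Pearson r with HAP1 over segregants, and the red lines mark the 9 other genes, with line heights set only for legibility. CYC7, CYC1, COX5A, YHB1 and OLE1 stand in the far left tail, while CYB2, ROX1, COX5B and HEM13 lie within the body of the distribution.

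HMG1, the aerobic HMG-CoA reductase gene of sterol synthesis and a listed target of Hap1, fell into 2 clusters over segregants, one of 42 with a mean log2 ratio of 0.17 and one of 44 with a mean of 1.28. No pooled value of r is therefore given for HMG1, and the relations with HAP1 were recomputed within its clusters, a step chosen after the clusters were seen. Within them HAP1 kept an SD of 0.333 and 0.342, against 0.517 over all segregants. COX5A was negative against HAP1 in both clusters, with r of -0.49 in the higher (permutation p = 0.00064; rho -0.43) and -0.44 in the lower (p = 0.004; rho -0.54). CYC1 had r of -0.44 in the lower cluster (permutation p = 0.0039; rho -0.39) and -0.38 in the higher (p = 0.011), where rho was -0.28 (p = 0.063) and r without the 2 farthest segregants was -0.28. CYC7 had r of -0.46 in the lower cluster (permutation p = 0.0023; rho -0.50) and -0.34 in the higher (p = 0.022), where rho was -0.28 (p = 0.064) and r without the 2 farthest was -0.21.

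For YHB1 and HEM13 no relation with HAP1 was detected within either cluster. YHB1 had r of -0.26 in the higher cluster (permutation p = 0.086; rho -0.01) and 0.01 in the lower (p = 0.97). HEM13 had r of -0.06 (permutation p = 0.69) and -0.12 (p = 0.46). OLE1 had r of -0.37 (permutation p = 0.012; rho -0.25, p = 0.11) in the higher cluster and -0.11 (p = 0.49) in the lower. ROX1 had r of -0.39 (permutation p = 0.0084) in the higher cluster and 0.12 (p = 0.43) in the lower. Without the 2 farthest segregants ROX1 had r of -0.22 in the higher cluster and -0.11 in the lower, so the contrast between the clusters rests on those segregants. For CYB2 and COX5B r lay between -0.11 and 0.14, with permutation p of 0.37 and above. These 18 permutation p values are unadjusted.

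With the HMG1 cluster as a block in the fit over all genes, 395 genes were called. CYC1 (slope -0.68; limma, adjusted p = 0.00728), CYC7 (-0.51; adjusted p = 0.00582) and COX5A (-0.66; adjusted p = 0.000487) passed. YHB1 (-0.29; limma, adjusted p = 0.517), OLE1 (-0.26; 0.189), ROX1 (-0.15; 0.511), CYB2 (-0.15; 0.842), COX5B (0.13; 0.771) and HEM13 (-0.12; 0.644) did not. HMG1 itself had r with HAP1 of -0.19 in the higher cluster (permutation p = 0.23) and -0.14 in the lower (p = 0.39).

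The genes were also set against each other. Of the 45 pairs that the 10 genes form, 25 had r above 0, with the highest between CYC7 and COX5A (0.71), between CYC1 and CYC7 (0.70) and between CYC1 and COX5A (0.68). HEM13 had r below 0 with CYC7 (-0.52), YHB1 (-0.48), OLE1 (-0.47) and CYB2 (-0.39), and above 0 with COX5B (0.28) and HAP1. YHB1 and CYB2, which both encode flavin- and heme-binding proteins, had r of 0.10. These correlations are over 85 or 86 segregants, share arrays and are given as a description.

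**Figure D4:**
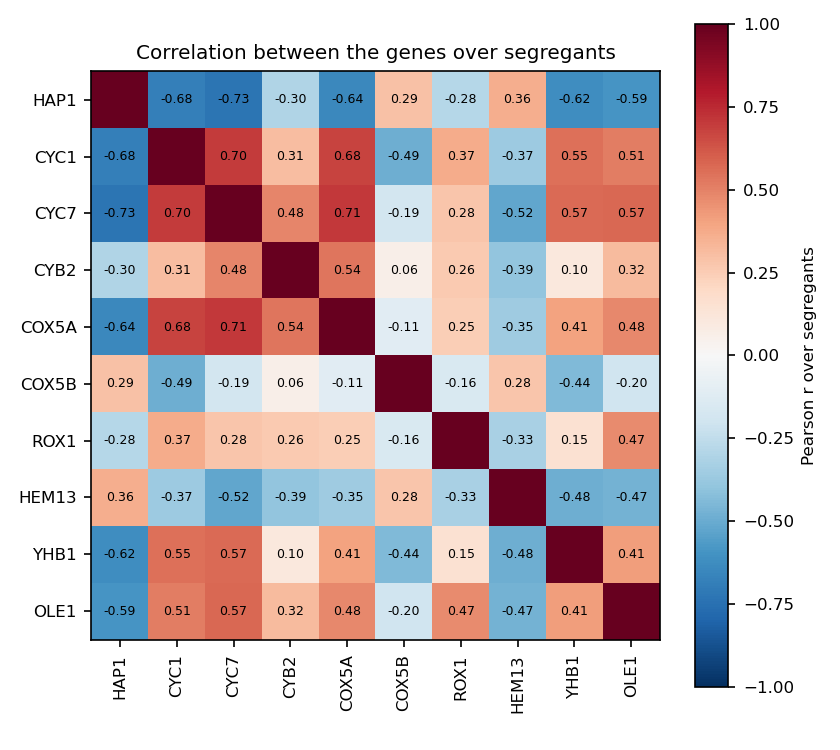
Pearson r over segregants between each pair of the 10 genes, from -1 (blue) to 1 (red). CYC1, CYC7, COX5A, YHB1 and OLE1 form a red block, and HAP1, HEM13 and COX5B are mostly blue against it.

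The pairs of an aerobic and a hypoxic gene were then compared. For cytochrome c, CYC1 and CYC7 moved together over segregants, with r of 0.70 and rho of 0.72 (permutation p = 1e-05, the smallest possible; limma, adjusted p = 5.53e-11). CYC7 was 1 of the 5.17% of genes called positive against CYC1. With the genes taken from opposite dyes r was 0.70 in one arrangement and 0.43 in the other (limma, adjusted p = 0.0376). The difference CYC1 minus CYC7 was -0.35 and -0.90 in RM11, against 0.14 and 0.12 in BY4716. The strains did not overlap, but the smallest p that an exact permutation of 2 against 2 cultures allows is 0.333. Over segregants the difference ran from -1.49 to 1.71 with a median of 0.15, and its r with HAP1 was -0.15 (permutation p = 0.17).

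For subunit V of cytochrome oxidase no such relation was detected. COX5A and COX5B had r of -0.11 (permutation p = 0.31) and rho of -0.16 (p = 0.15; limma, adjusted p = 0.508), where 10.9% of genes were called negative against COX5A. The difference COX5A minus COX5B was 3.05 and 2.31 in RM11, against -0.18 and -0.07 in BY4716. Over segregants it ran from -0.29 to 3.84 with a median of 1.47, lay above 0 in 81 of 86 and above both RM11 cultures in 6. Each gene is set against its own level in the pool, so a difference above 0 does not place COX5A above COX5B in level. The difference had r of -0.58 and rho of -0.60 with HAP1 (permutation p = 1e-05 for both, the smallest possible), and it contains COX5A, whose own r was -0.64.

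Further pairs were read beside them. HYP2 and ANB1 encode the aerobic and hypoxic forms of the translation factor eIF5A, and PET9 and AAC3 encode ADP/ATP carriers of the mitochondrial inner membrane. HYP2 stood at 0.66 and 1.04 in RM11, against -0.18 and -0.21 in BY4716, and ANB1 at 1.04 and 1.33 in RM11, against -0.13 and -0.22 in BY4716. PET9 stood at 0.81 and 1.00 in RM11, against 0.04 and 0.01 in BY4716, and AAC3 at 1.28 and 1.16 in RM11, against 0.10 and 0.03 in BY4716. Both genes of each pair were thus higher in RM11.

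HYP2 and ANB1 had r of 0.92 over segregants (permutation p = 1e-05), where 23.3% of genes were called positive against HYP2, and PET9 and AAC3 had r of 0.78 (p = 1e-05), where 7.1% were called against PET9. The genes of a pair have similar sequences, and whether the probes tell the copies apart is not given in the sources used here. The difference HYP2 minus ANB1 had r of -0.28 with HAP1 (permutation p = 0.0091), and PET9 minus AAC3 had r of -0.25 (p = 0.018), both unadjusted. HMG1 stood at 1.49 and 1.71 in RM11, against -0.16 and -0.12 in BY4716, and its hypoxic partner HMG2 at 0.62 and 0.59 in RM11, against 0.08 and 0.12 in BY4716. HMG2 had r with HMG1 of 0.06 in the higher HMG1 cluster (permutation p = 0.71) and 0.42 in the lower (p = 0.0051). In the lower cluster rho was 0.38 (permutation p = 0.012). There r was 0.32 without the 2 segregants farthest from the HMG1 median of that cluster. Of the other 4 pairs, 3 were called positive.

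**Figure D5:**
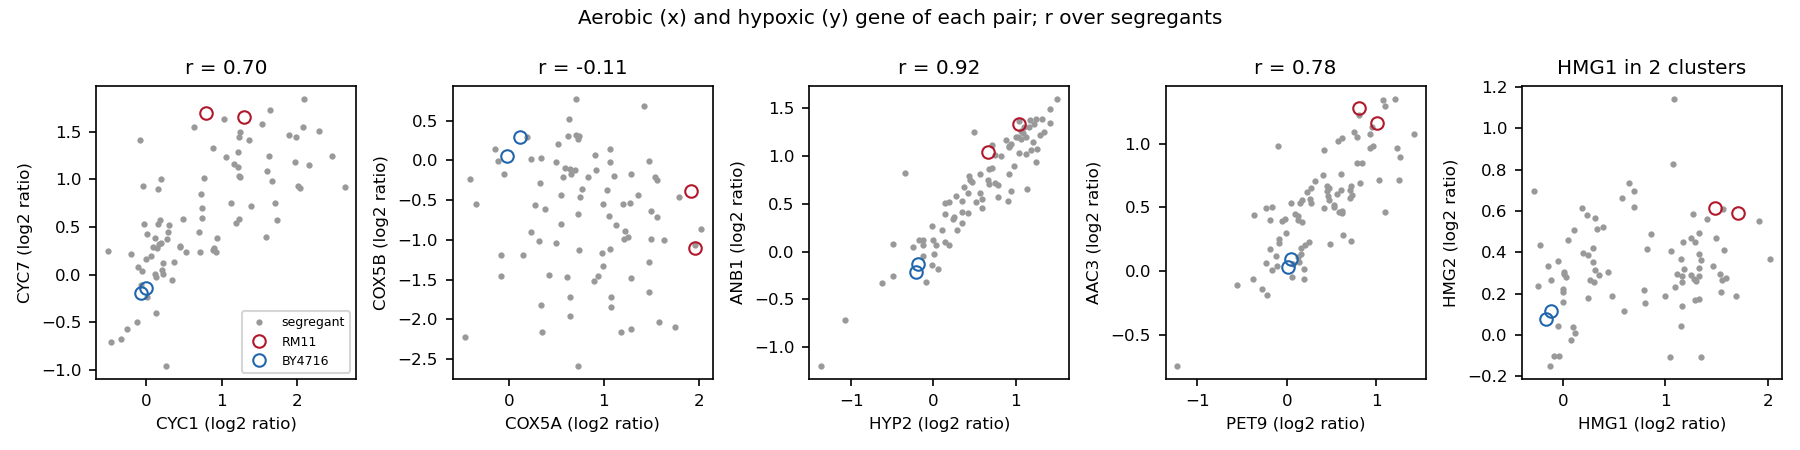
Each panel plots the hypoxic gene (vertical axis) against the aerobic gene (horizontal axis) of a pair as log2 ratios over the BY4716 pool, with grey points for segregants, red circles for RM11 and blue circles for BY4716. CYC1 with CYC7, HYP2 with ANB1 and PET9 with AAC3 lie along rising lines, COX5A with COX5B form a cloud with r of -0.11, and HMG1 falls into 2 clusters.

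Wider lists of the pathway were counted the same way. Of 16 tested genes known to be activated by Hap1 or heme, CYC7, COX5A and YHB1 among them, 13 were higher in RM11 and none lower, beside 18.2% and 8.54% of all genes, with a median difference of 1.40, against 0.10 over all 3256 genes. Over segregants 17 of 20 had a negative and none a positive slope on HAP1, beside 15.9% and 11.2% of all genes. Among the 17 are CYC1, CYC7, CYB2, COX5A, ROX1 and YHB1, already counted above. The median r was -0.50, against -0.01 over all genes. CYB5, for cytochrome b5, was higher in RM11 by 1.78 (SE 0.09; limma, adjusted p = 0.000307) and had a slope of -0.97. CTT1, the cytosolic catalase, had the largest difference of this list at 2.48 (SE 0.20; limma, adjusted p = 0.000988), with an r with HAP1 of -0.02. Among the genes that did not pass between the parents were ROX1 (0.24), NCP1 (-0.22) and CCP1 (-0.18).

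The hypoxic list did not move one way. Of 14 tested genes, 7 were higher in RM11 and 2 lower, beside 18.2% and 8.54% of all genes, with a median difference of 0.46. The higher genes were led by URA1 (3.03), an enzyme of pyrimidine synthesis, a pathway whose gene URA3 RM11 lacks, followed by CYC7, ANB1 (1.36) and AAC3 (1.16). Whether the probes of ANB1 and AAC3 tell them apart from their aerobic partners HYP2 and PET9 is not given. COX5B and the oxidoreductase gene OYE2 (-0.51) were the lower ones of these 14. Of the genes of the list outside the 14, TIR2 and TIR4 lacked a value in at least 1 parental culture and were not tested. The others could be tested with at least 1 array per culture. There FET4 (-1.05; limma, adjusted p = 0.00698) and TIR1 (-0.70; adjusted p = 0.0159) were lower, and OLE1, SUT1 and OSM1 did not pass. COX5B missed the threshold in that fit (limma, adjusted p = 0.0683). Over segregants 9 of 21 had a positive slope on HAP1 and 6 a negative one, beside 11.2% and 15.9% of all genes. HEM13 and COX5B among the 9, and CYC7 and OLE1 among the 6, are already counted above. Among the 9 were the cell wall genes TIR1 (0.63) and TIR2 (0.61) and the disulfide isomerase gene EUG1 (0.49). The 6 with a negative slope were led by CYC7, ANB1 (-0.69) and the sterol oxidase gene ERG25 (-0.58).

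Of 7 tested genes of heme synthesis and use, 2 were higher in RM11 and 1 lower, with a median difference of 0.13. Over all genes 18.2% were higher and 8.54% lower, so these counts lie near the background. HEM1, for the first enzyme of heme synthesis, was higher by 0.81 and HEM2, for the next, by 0.63, while HEM3, for the third, was lower (-1.44). HEM3 read -1.89 and -2.57 in RM11, and -1.02 and -0.55 in BY4716, away from 0 although the pool is BY4716. HEM13 was among those that did not pass. Over segregants 4 of 14 had a negative slope on HAP1 and 2 a positive one, near the 15.9% and 11.2% of all genes. The negative ones were led by HMX1 (-1.50), the heme oxygenase gene, then CYC3 (-0.25), for the cytochrome c heme lyase, and HEM2 (-0.24). The positive ones were HEM13 and HEM14 (0.23). HMX1 was higher in RM11 by 2.85 with at least 1 array per culture (limma, adjusted p = 0.000288).

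Of 14 tested regulators, HAP4 (0.77), the activating subunit of the CCAAT-binding HAP complex, and SPT23 (0.32), an activator of OLE1, were higher in RM11. HAP1 and MGA2 (-0.48), the partner of SPT23 in activating OLE1, were lower, and the median was 0.16. The 2 higher and 2 lower of 14 lie near the 18.2% and 8.54% of all genes. Over segregants 3 of 19 had a positive slope on HAP1: MGA2 (0.49) and the sterol regulators UPC2 (0.27) and ECM22 (0.26). These 3 and the 4 with a negative slope lie near the 11.2% and 15.9% of all genes. The negative ones included SRO9 (-0.24), an RNA-binding protein known to join complexes with Hap1, ROX1 (-0.22) and HAP4 (-0.22). OLE1 thus had a slope of -0.57, SPT23 one of -0.06 that did not pass (limma, adjusted p = 0.146), and MGA2 one of 0.49.

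By likeness over segregants, the genes with the lowest pooled r to HAP1 were HMG1, whose value is left out because of its clusters, CYC7, HYP2 (-0.72), CYB5 (-0.71) and MTC7 (-0.70). HYP2 and MTC7 are adjacent on chromosome V and lie near CYC7 there. The genes with the highest r to HAP1 were YER138W-A (0.71), YLR225C (0.68), PAU11 (0.63), YDR034C-A (0.63) and YER138C (0.62). YLR225C lies on chromosome XII, as HAP1 does, and was also lower in RM11 (difference -2.15, SE 0.51; limma, adjusted p = 0.0346). With at least 1 array per culture YLR225C missed the threshold (limma, adjusted p = 0.054). YER138W-A, YDR034C-A and YER138C are reading frames of Ty retrotransposons, and averaged -1.61, -2.75 and -3.14 in RM11, against 0.17, 0.27 and 0.24 in BY4716.

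The measured genes beside HAP1 on chromosome XII did not share its pattern to this degree. Over segregants SYM1, CQD2 and NDL1 on one side had r with HAP1 of 0.19, -0.23 and -0.08, and YLR257W, GSY2 and HSP60 on the other had 0.24, 0.33 and -0.05. GSY2, a glycogen synthase gene, was the one of the 6 to pass against HAP1 (limma, adjusted p = 0.0126). Between the parents CQD2 (0.33) and YLR257W (0.44) were higher in RM11, the opposite of HAP1. GSY2, tested with at least 1 array per culture, was lower (-0.70; limma, adjusted p = 0.0265), the direction of HAP1.

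The nearest genes in pattern were also found for the other 9. COX5A was most like RIP1 (r = 0.90), the Rieske protein of the respiratory chain, and COX12 (0.90), another subunit of cytochrome oxidase. CYC7 was most like CYB5 (0.74) and the bc1 complex gene QCR6 (0.73), and CYC1 was most like NDE1 (0.74), a mitochondrial NADH dehydrogenase, and CYC7. OLE1 was most like HMG1, again without a value, and ERG25 (0.66).

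YHB1 was most like MIC26 (0.92), its neighbour on chromosome VII, and RNA14 (0.80), an mRNA cleavage factor gene. HEM13 was most like WTM2 (0.67), a transcriptional modulator, and EUG1 (0.67), and CYB2 was most like SEG1 (0.77) and the proline permease gene PUT4 (0.76). COX5B was most like the cell wall genes SKN1 (0.69) and WSC4 (0.67). ROX1 had no close match, with r of 0.49 for both CAF120 and GPA2.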

How the data were processed

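The authors deposited, per array, log ratios of a culture over the BY4716 pool, read as log2 from their range, since the base is not stated. Every array had a mean of 0 as deposited. Scanner, background correction and dye normalization are not given in the sources used here. Of 7085 probes 5645 had 1 gene symbol, and probes of a gene were averaged. Both arrays of a culture, a dye swap of 1 RNA, were averaged into 1 replicate. The fit named by 1 array per culture took genes with at least 1 array in each parental culture and averaged all arrays present. R 4.3.3 and limma 3.58.1 were used, at Benjamini-Hochberg adjusted p under 0.05 over all genes: RM11 minus BY4716 for genes on all 8 parental arrays, and slopes on HAP1 for genes measured in 80 percent of segregants or more. Correlations had 100000 two-sided permutations, unadjusted. Clusters were called with mclust 6.1.1 (BIC gain over 10, separation over 4 SD, smaller cluster at least 20 percent). The parental, variance and HAP1 slope tests were checked on simulated data, and the other steps were not.

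The genes, lists and tests were chosen with earlier results of these data known. Named genes were the 10 genes, up to 4 higher and 4 lower per list and up to 3 per direction by slope on HAP1, the 5 highest and 5 lowest in r with HAP1, the 2 most like each other gene and the 3 nearest on each side of HAP1. NCP1 and CCP1 were named after their values were seen. Alternatives covered array scaling, single dyes, left-out cultures and segregants, a replicate block, missing-value filters, the error estimate, the title number, the first principal component and the HMG1 cluster. Signal intensities were not used, so precision rests on the number of arrays. Sequences and coordinates are not reported here.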

Additional observations from a re-analysis of the deposited data

How the results depend on the processing

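With 2 cultures per parent, the error rests on 4 cultures, and counts over all genes moved with it. Parental calls numbered 869, 533 on Cy3-titled arrays alone, 219 among genes on every array, and 199 to 1797 with a culture left out. Of the 10 genes, 3 were called higher, 6 on Cy5-titled arrays alone, 0 among genes on every array, where only HAP1 and ROX1 were tested, and 3 to 5 with a culture left out; 2 were called lower, and 1 on Cy3-titled arrays, among genes on every array, with 1 array per culture and in the lowest left-out case, against 2 in the highest. The HEM13 difference turned to 0.0558 on Cy3-titled arrays alone (limma, adjusted p = 0.719), neither value past the threshold. The variance test called 1909 genes, 631 on Cy3-titled and 3403 on Cy5-titled arrays, 580 among genes on every array, 3168 with the error between the arrays of a segregant, and 143 to 3730 with a culture left out; of the 10 genes it called 7, 2 among genes on every array and 2 to 8 with a culture left out. Slopes on HAP1 were called for 1508 genes, 805 with HAP1 from Cy3-titled and genes from Cy5-titled arrays, 859 within the title number, 744 without the 2 farthest segregants and 395 with the HMG1 cluster as a block, an alternative chosen after seeing the data, as were leaving out segregants in turn (994 to 1658), leaving out those with low array correlation and LEU2, URA3, STE3 and DSE1 as covariates. Of the 9 genes, 7 were negative, 5 on Cy5-titled arrays alone and 3 with the HMG1 cluster as a block. The negative count was 6 on Cy3-titled arrays alone, with arrays centred on their medians and with HAP1 and genes from opposite dyes. A positive slope was called for 2 of the 9 genes. The positive count was 1 under quantile normalization, on either dye alone and with HAP1 from Cy3-titled arrays. It was also 1 with the first principal component and without the 2 farthest segregants. With the HMG1 cluster it was 0, and the HEM13 slope turned to -0.12 (limma, adjusted p = 0.644). The cause was not tested. The calls of CYC1, CYC7 and COX5A against HAP1 held in all 13 alternative fits, though the slopes of CYC1 (-0.68) and CYC7 (-0.51) were over 1.5 times smaller with the HMG1 cluster, and those of YHB1 and OLE1 in all but that with the HMG1 cluster. The 3 positive isoform pairs were called under all 8 alternatives.

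The culture number 1 or 2 is shared by RM11 and BY4716, but the labels do not say that it pairs them. Deviations of same-numbered cultures correlated with r of 0.189 over 3256 genes. With the number as a replicate block 830 genes were called, and 3 of the 10 genes were higher and 2 lower.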
